A study of Homo sapiens with 4 samples.

Results

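A group of 117 genes had at least 2-fold more reads in polysomes of HCT116 cells labelled as a Dicer1 knockout than in those of wild type HCT116 cells, in heavy and in light polysomes alike. HCT116 is an established human colorectal carcinoma line. Polysomes are mRNAs that carry several ribosomes, and sucrose gradients of cytoplasmic extract separate them by ribosome number. Each genotype gave 1 gradient with 2 libraries: a heavy one of mRNAs with at least 10 ribosomes and a light one of those with at most 9. The 4 libraries thus form a heavy pair and a light pair, with 1 library per group and no replicate of either genotype. Neither the kind of alteration of the gene nor the number of clones behind it is stated in the sources used here.

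The members were chosen from the measured values. A row of the count table entered when the higher library of the heavy pair and that of the light pair each had 100 or more counts, which left 10418 of 26364 rows. For each row the difference was the log2 of (count + 2) over the library total, labelled knockout minus wild type, centred on the median of these rows. A difference of 1 or more in both pairs was required, and 130 rows met this. Of these, 13 genes that the rule leaves out were set aside, and 117 remained. The differences between the genotypes below are therefore descriptions of how the members were picked and carry no test. Their 95% counting intervals cover the error of counting reads only, since PCR copies of a molecule cannot be told from separate molecules here. Counts of a pair are given with the wild type first.

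DICER1 is the enzyme that cuts hairpin precursors into mature microRNAs, and microRNAs loaded on Argonaute proteins lower the stability and translation of mRNAs through short matches in their 3′ UTRs. Loss of DICER1 is known to deplete most microRNAs, so that their direct targets tend to accumulate, next to a larger body of secondary changes. In colorectal carcinoma cells, members of the miR-17, miR-21, miR-29 and miR-200 families are among the well known microRNAs.

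The check of the label came out opposite in sign to a loss of the transcript. DICER1, on chromosome 14 from 95086228 to 95158010 (minus strand, GRCh38), had 500 and 925 counts in the heavy pair and 547 and 889 in the light pair. Both labelled knockout libraries were above both wild type libraries. The centred log2 difference was 0.98 in the heavy pair (counting interval 0.83 to 1.15) and 0.93 in the light pair (0.78 to 1.09), just under the rule's threshold. The counts cover the whole gene and leave out of sight whether the mRNA still encodes an active enzyme, so "labelled knockout" is used throughout, and every direction given here rests on that label.

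Library totals ran from 17457116 to 20933675 counts. Ribosomal RNA took 2.61% and 4.32% of the counts in the heavy pair and 3.59% and 5.97% in the light pair. Of 12 markers of colon epithelium, 10 had at least 100 counts in some library, while VIL1 was at 0 in all 4 and LGR5 at 0 or 1. Of 22 markers of fibroblasts, smooth muscle, endothelium, blood, liver and glia, 5 were at 0 in all libraries, DCN and PTPRC among them, and 16 stayed under 10 counts. Their summed level was 38.9 and 59.6 CPM (counts scaled to a library total of 1000000) in the heavy pair and 32.4 and 28.6 CPM in the light pair. COL1A1 and ACTA2 alone of these reached 100 counts. In bulk samples such as these, fewer cells of a type and less RNA per cell cannot be told apart.

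Background counts set the scale for the group. In the heavy pair 361 of the 10418 rows, 3.47%, were at least 2-fold higher in the labelled knockout, and in the light pair 387 rows, 3.71%. Both at once held for 130 rows, 1.25%, and 117 rows were at least 2-fold lower in both pairs. The members' median difference was 1.48 in the heavy and 1.46 in the light pair, values that the choice of members fixes in large part. The smaller of a member's 2 differences was 3 or more for 6 members, 2 to 3 for 7, 1.5 to 2 for 26 and 1 to 1.5 for 78. For 76 members the lower counting limit was above 1 in both pairs, and for all 117 it was above 0. In 21 members both wild type libraries had under 100 counts, so that they could enter only through the labelled knockout libraries and had to differ.

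**Figure D1:**
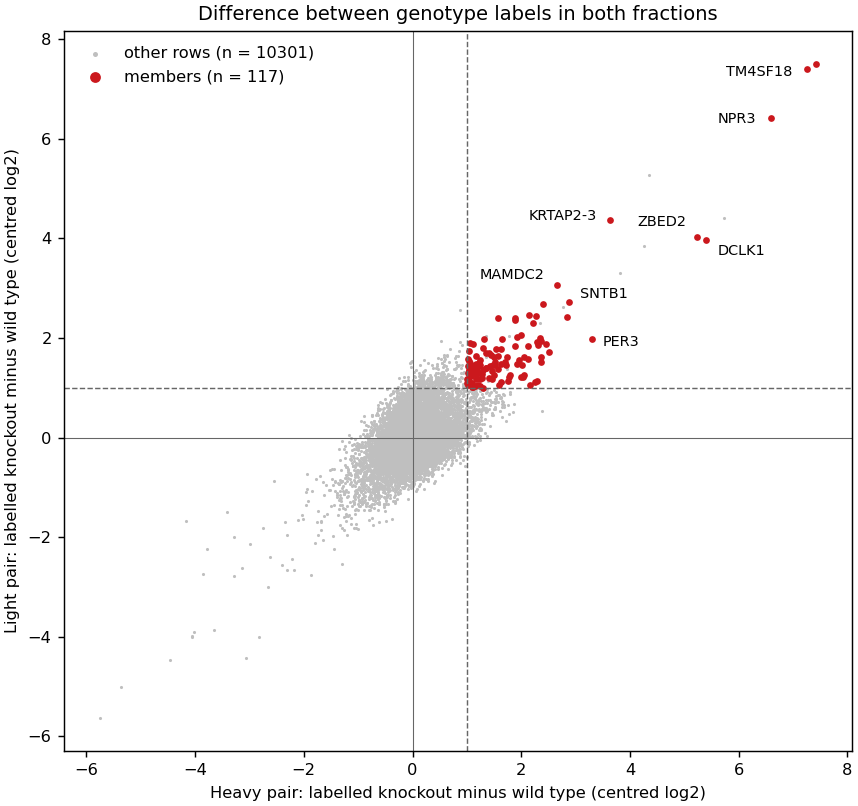
Each point is a row with 100 or more counts in the higher library of both pairs, placed by its centred log2 difference between labelled knockout and wild type in the heavy pair (x axis) and the light pair (y axis). The 117 members in red lie right of and above the dashed lines at 1, most of them close to the corner, and TM4SF18, NPR3, ZBED2, DCLK1 and KRTAP2-3 lie far out in both pairs, while grey points in that corner are the genes the rule leaves out.

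The threshold cut through a continuum. Just inside it, the smaller difference was 1.004 for FBLN5, 1.01 for CRY1, 1.01 for TINAGL1 and 1.01 for LARS2. Just outside it were SMPD1 with 0.997, the carboxypeptidase gene CPM with 0.996, ZBTB34 with 0.98 and SEMA3B with 0.98. In the pair with the smaller difference, the counting interval of each of these 8 genes reached across 1.

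Of the members named here, those far above the rest were near silent in the wild type. TM4SF18, a membrane protein of the tetraspanin-like L6 family, had 2 and 567 counts in the heavy pair and 4 and 859 in the light pair. Its centred log2 difference was 7.25 (6.39 to 11.29) in the heavy and 7.40 (6.62 to 9.86) in the light pair. NPR3, the clearance receptor that removes natriuretic peptides, had 26 and 2512 counts in the heavy pair and 35 and 2702 in the light pair, a difference of 6.59 (6.14 to 7.31) and 6.43 (6.03 to 7.03). Both genes were thus present at a handful of reads in 1 genotype label and at a level typical of expressed genes in the other.

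ZBED2, a zinc finger protein related to transposases, had 8 and 350 counts in the heavy pair and 42 and 609 in the light pair. The difference was 5.24 (4.55 to 6.77) in the heavy and 4.03 (3.64 to 4.58) in the light pair. DCLK1, a microtubule-associated kinase known as a marker of intestinal tuft cells, had 3 and 196 counts in the heavy pair and 10 and 157 in the light pair, a difference of 5.41 (4.56 to 8.42) and 3.96 (3.29 to 5.30). KRTAP2-3, a keratin-associated protein of hair, had 497 and 5762 counts in the heavy pair and 607 and 10676 in the light pair, a difference of 3.63 (3.50 to 3.77) and 4.37 (4.25 to 4.49). KRTAP2-3 has near-identical relatives in the same gene cluster, so reads may have been split or lost between them and its counts are uncertain.

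**Figure D2:**
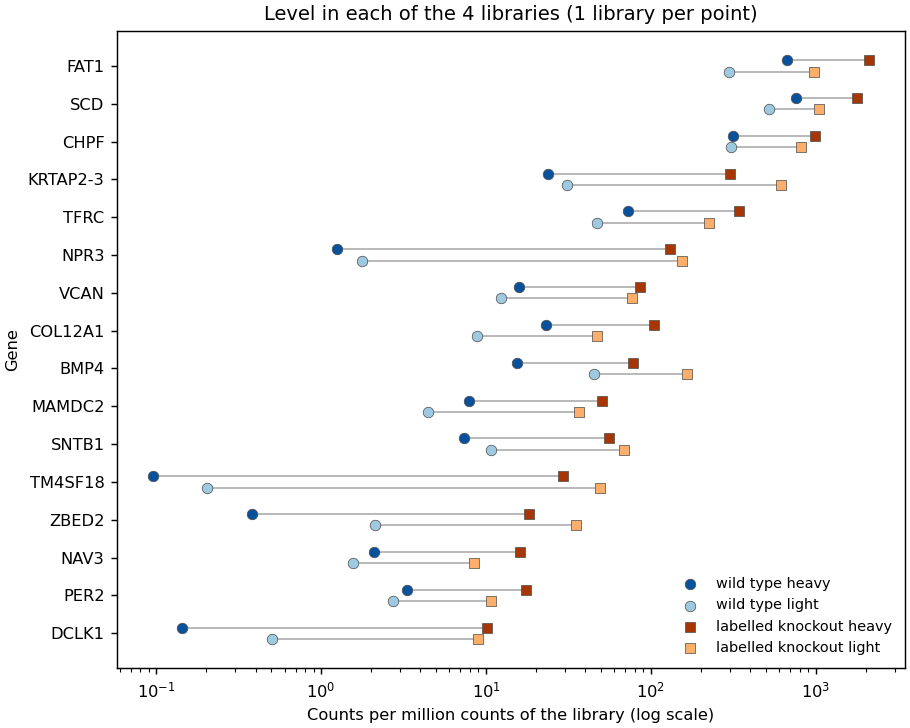
Level of 16 members in each of the 4 libraries, in CPM on a log axis, with circles for wild type, squares for the labelled knockout, and a line joining the libraries of a pair. In each gene both squares lie to the right of both circles, by a wide gap for TM4SF18, NPR3 and DCLK1 and by a narrow one for SCD and CHPF.

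Promoters and 3′ UTRs were read for the members to see what they share beyond the values the rule used. The promoter windows came from RefSeq on GRCh38.p14, 250 bases before to 50 after the start, and 91 members had one. Their median GC content was 63%, against 66% for the other rows. The letters TATAAA on the gene's own strand, starting 35 to 25 bases before the start, stood in 6 of 91 members (6.59%), in 1.29% of 8400 other rows and in 2.41% of all 27305 promoters. This window was chosen after the data were seen, and over the whole window and both strands the shares were 13.2%, 4.67% and 11.95%. The 6 sequences are shown to let the box be read in its surroundings, with TATAAA in capitals and the 50 bases before the start given 5′ to 3′ on the gene's strand. The distance to the start is set by the window that was searched. CEMIP, ECM1 and MAMDC2 are matrix genes.
CEMIP (chr15:80779320-80779369, plus strand): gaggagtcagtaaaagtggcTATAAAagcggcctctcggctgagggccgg
ECM1 (chr1:150508059-150508108, plus strand): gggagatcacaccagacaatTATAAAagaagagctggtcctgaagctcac
KRTAP2-3 (chr17:41060115-41060164, minus strand): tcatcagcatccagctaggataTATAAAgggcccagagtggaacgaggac
MAMDC2 (chr9:70043531-70043580, plus strand): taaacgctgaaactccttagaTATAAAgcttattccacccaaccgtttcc
MAT2A (chr2:85539118-85539167, plus strand): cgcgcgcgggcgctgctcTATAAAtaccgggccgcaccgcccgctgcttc
TFRC (chr3:196082091-196082140, minus strand): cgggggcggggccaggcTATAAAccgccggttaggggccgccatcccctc
A match to these letters is a description of the window and not a binding site.

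Further motifs were counted on both strands of the whole window. TGACTCA, the AP-1 element, was in 5.49% of members, 2.75% of other rows and 4.92% of all promoters. CACGTG, the E-box read by the clock factors, was in 7.69% of members and 10.5% of other rows, and GGGCGG, the Sp1 element, in 72.5% and 73.5%. CTTTGAT, read by TCF factors, was in 0 of 91 members and 1.26% of other rows. CACGTG stood in none of the windows of PER2, PER3, CRY1 and CRY2. Variants of these letters and sites outside the window were not searched, so this leaves out of sight whether clock factors act on these genes.

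Seed matches were counted in the 3′ UTRs of 114 members and 10090 other rows, taken from GENCODE 44. A seed match is the 7-base complement of bases 2 to 8 of the microRNA. The share of members with a match was set against that of other rows at the same 3′ UTR lengths. It was larger for 17 of 20 microRNA families listed here as epithelial and for 1 of 3 listed for liver, muscle and brain. These labels are those of the lists, since no microRNA was measured in these libraries. The family miR-124, also planned for the second list, had no sequence in the source used. The mean share over the 20 families was 23.2% in members, 20.1% in other rows at the same lengths and 17.2% in other rows as they are. Over the 3 families of other tissues it was 13.5% in members and 14.3% in other rows at the same lengths. These are shares of genes with a string of letters, given without a test.

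The gap was widest for miR-19, with a match in 28.1% of members against 18.7%, for miR-21 with 18.4% against 11.9%, and for miR-29 with 25.4% against 19.4%. It had the opposite sign for miR-15 (25.4% against 29.1%), miR-34 (19.3% against 20.0%) and miR-31 (12.3% against 17.2%). Over all rows with a 3′ UTR, those with a match had a median heavy pair difference of 0.11 for miR-19, 0.09 for miR-21 and 0.13 for miR-29. For the families of other tissues it was similar, 0.10 for miR-122, 0.09 for miR-1 and 0.12 for miR-9. In the light pair these medians were 0.02, 0.08 and 0.06, and 0.01, 0.03 and 0.03, in the same order. The mature sequences of the families with the widest gap, from RefSeq, have their seed, bases 2 to 8, in capitals.
hsa-miR-19b-3p: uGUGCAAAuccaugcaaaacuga
hsa-miR-21-5p: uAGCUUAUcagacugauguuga
hsa-miR-29a-3p: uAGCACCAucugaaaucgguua
The 3 seeds differ from each other, and each match below is the reverse complement of 1 of them.

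ENPP5 held 2 matches to miR-19, SCML2 held 2 to miR-21 and TET1 held 3 to miR-29. These members were picked for display after the values were seen. Each site is printed with its match in capitals, and the position counts bases from the start of the 3′ UTR.
ENPP5, position 294, miR-19: atatatttagcaacTTTGCACtatgtaa
ENPP5, position 414, miR-19: gaaaatgacaacttTTTGCACccatgtc
SCML2, position 631, miR-21: aaaaaagcaagcttATAAGCTttcatga
SCML2, position 1622, miR-21: ttgatgtaatgtttATAAGCTatgagaa
TET1, position 283, miR-29: agaatcactcagttTGGTGCTttaaatt
TET1, position 400, miR-29: ctctacacagcttcTGGTGCTtaaccac
TET1, position 1538, miR-29: tatggaaaacctaaTGGTGCTtctccct
ZBTB20, whose 3′ UTR has 24505 bases, held matches to 19 of the 20 families, ANKRD52 to 14 and ATXN1 and ITGB8 to 13 each. At the other end, 12 members held none, and how many other rows held none was not counted. The median was 4 families in members and 3 in other rows.

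**Figure D3:**
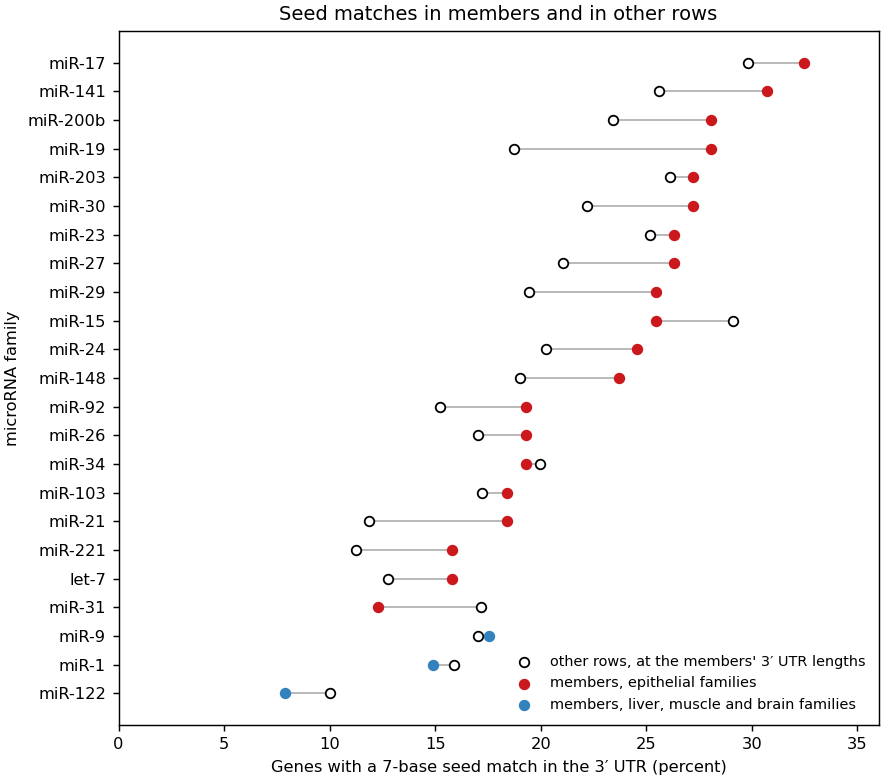
Share of genes (x axis, percent) with a 7-base seed match in the 3′ UTR for 23 microRNA families. Filled points are the members and open circles the other rows, weighted to the members' 3′ UTR length classes. The filled point lies right of the open circle in 17 of the 20 families listed as epithelial (red), by the widest gap for miR-19, and in 1 of the 3 listed for other tissues (blue).

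Genes of the extracellular matrix and of its synthesis, CHPF and P3H3 among the latter, made up 16 members. The matrix is the mesh of collagens, laminins, proteoglycans and linker proteins that cells secrete around themselves. MAMDC2, a secreted protein with MAM domains that binds glycosaminoglycans, had 164 and 977 counts in the heavy pair and 88 and 639 in the light pair. Its difference was 2.66 (2.43 to 2.92) in the heavy and 3.07 (2.77 to 3.43) in the light pair. VCAN, the large chondroitin sulfate proteoglycan versican, had 331 and 1643 counts in the heavy pair and 244 and 1343 in the light pair, a difference of 2.40 (2.24 to 2.58) and 2.69 (2.50 to 2.90). COL12A1, a collagen that decorates fibrils, had 481 and 1996 counts in the heavy pair and 174 and 827 in the light pair, a difference of 2.15 (2.01 to 2.30) and 2.47 (2.25 to 2.73). All 4 values of each gene fall into separate ranges by genotype label.

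CEMIP, which binds hyaluronan and takes part in its breakdown, followed with 2.36 in the heavy and 1.95 in the light pair. The abundant matrix enzyme gene was CHPF, which builds chondroitin chains such as those on versican: it stood at 317 and 989 CPM in the heavy pair and 305 and 814 CPM in the light pair, a difference of 1.62 and 1.48. P3H3, which modifies collagen chains, differed by 1.70 and 1.52, and FRAS1, a basement membrane protein, by 1.58 and 1.37. The remaining matrix members had a smaller difference between 1.004 and 1.27: MATN2, COL9A2, COL9A3, COL18A1, LAMB2, LAMB3, ECM1, TINAGL1 and FBLN5.

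Most collagen and laminin chains that passed the count minimum were above 0 in both pairs, members or not. Of 44 collagen chains, 10 were among the rows, and 10 of 10 were above 0 in both pairs, with a median of 0.88 in the heavy and 1.28 in the light pair. Of all rows, 5209 and 5208 of 10418 were above 0. Only COL12A1, COL18A1, COL9A2 and COL9A3 reached 1 in both, and COL9A2, with 47 and 48 counts in the wild type, was among the rows through the labelled knockout alone. COL4A4 passed the minimum of the light pair in the same way, with 82 and 108 counts. For both genes the sign there was fixed by the count minimum. The 34 chains under the count minimum were mixed: 7 had a lower CPM in the labelled knockout in both pairs, 5 a higher one in both, and 8 were at 0 in all libraries. Those with lower values included COL4A3, with 105 and 70 counts in the heavy pair and 55 and 45 in the light pair, and COL27A1, with 61 and 35 and with 79 and 29. COL1A1, a collagen of fibroblasts, had 468 and 911 counts in the heavy pair and 206 and 304 in the light pair, and differed by 1.06 and 0.79. COL1A2, its partner chain, had 1 count in all 4 libraries together, and DCN and LUM had 0. Of the 9 laminin chains among the rows, 8 were above 0 in the heavy and 9 in the light pair, and LAMB2 and LAMB3 were members. In the light pair LAMA3 (74 and 117 counts) and LAMC3 (73 and 112) passed the minimum through the labelled knockout alone, which fixed their sign. LAMA4, under the count minimum, went the other way, with 68 and 17 counts in the heavy pair and 36 and 5 in the light pair. These 2 families were grouped after the members were seen.

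Receptors and surface proteins were 14 members. TFRC, the transferrin receptor that brings iron into the cell, had 1516 and 6575 counts in the heavy pair and 925 and 3903 in the light pair. The difference was 2.21 (2.13 to 2.30) in the heavy and 2.31 (2.21 to 2.42) in the light pair, with tight intervals at these counts. FAT1, a giant cadherin that restrains growth signalling, stood at 669 and 2094 CPM in the heavy pair and 298 and 981 CPM in the light pair, a difference of 1.62 and 1.78. Its 2 wild type libraries lay below both labelled knockout libraries, and within each genotype label the heavy library was the higher one.

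IGF2R, the receptor that clears IGF2 and sorts lysosomal enzymes, differed by 1.92 in the heavy and 1.49 in the light pair. SORL1, a sorting receptor of endosomes, differed by 1.24 and 1.57. EPHA4, a receptor tyrosine kinase for ephrins, had 81 and 284 counts in the heavy pair and 43 and 194 in the light pair, a difference of 1.88 and 2.36. ITGB8, an integrin chain that helps activate latent TGF-beta, differed by 2.37 and 1.62. NTSR1, the neurotensin receptor, was at 164 and 429 CPM in the heavy pair and 131 and 331 CPM in the light pair, a difference of 1.36 and 1.39. PVRL3, the adhesion protein nectin-3, differed by 1.36 and 1.39, CD22, a lectin best known from B cells, by 1.54 and 1.77, and SCARA3, a scavenger receptor-like protein, by 1.79 and 1.26. The B cell marker MS4A1 was at 0 in all 4 libraries.

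Secreted signals, proteases and protease inhibitors were 12 members. BMP4, a ligand of the TGF-beta superfamily, had 324 and 1490 counts in the heavy pair and 892 and 2874 in the light pair, a difference of 2.29 (2.13 to 2.48) and 1.92 (1.81 to 2.03). FGF9, a fibroblast growth factor, had 29 and 113 counts in the heavy pair and 71 and 256 in the light pair, a difference of 1.99 and 2.06. Both ligands were lower in heavy than in light polysomes in either genotype label. JAG1, a ligand of Notch receptors, differed by 1.02 and 1.57, SEMA3C, a guidance cue of the semaphorin family, by 1.05 and 1.35, and VASH2, a regulator of vessel growth, by 2.25 and 1.12.

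SERPINA1, the inhibitor of neutrophil elastase, differed by 1.88 in the heavy and 2.40 in the light pair, and SERPING1, the inhibitor of complement C1, by 1.11 and 1.87. Among proteases, PLAT, the tissue plasminogen activator, differed by 1.499 and 1.63, KLK6, a kallikrein, by 1.35 and 1.71, and ADAM19, a membrane metalloprotease, by 1.97 and 1.57. KLK6 shares 20.5% of its exon bases with a gene on the opposite strand, and the strand setting of the counting is not given in the sources used here. C1QTNF6, a secreted relative of C1q, and IGIP, a short secreted peptide, had smaller differences of 1.03 and 1.01.

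The 5 channels and carriers were led by ANO1, a calcium-activated chloride channel, with 921 and 3570 counts in the heavy pair and 838 and 2179 in the light pair. ANO1 differed by 2.05 (1.95 to 2.16) and 1.61 (1.498 to 1.73). SLC1A3, a glutamate carrier, differed by 1.249 and 1.46, SERINC2, which belongs to a family of serine incorporators, by 1.28 and 1.21, and SLC38A7, an amino acid carrier, by 1.14 and 1.03.

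Signalling proteins inside the cell were 14 members, DCLK1 among them. FRS2, the adaptor that couples FGF receptors to the MAP kinase pathway, had 99 and 384 counts in the heavy pair and 422 and 830 in the light pair, a difference of 2.03 (1.73 to 2.39) and 1.21 (1.04 to 1.38). FRS2 was lower in the heavy than in the light library of either genotype label. PDE4B, which breaks down cyclic AMP, differed by 1.57 and 1.65. PLK2, a polo-like kinase and p53 target, differed by 1.63 and 1.13. The tensins, which link integrins to actin, had TNS3 at 1.92 and 2.01 and TNS4 at 1.18 and 1.28, while TNS2 was at -0.14 and 0.24. VSNL1, a neuronal calcium sensor, differed by 1.32 in the heavy and 1.99 in the light pair. The remaining members here were MAPK8IP2, a scaffold of the JNK pathway, KCTD12, an auxiliary subunit of GABA-B receptors, TNNC1, cardiac troponin C, and SHCBP1, a partner of the adaptor SHC1, with smaller differences between 1.06 and 1.41.

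Cytoskeletal members were 7. Beside KRTAP2-3, NAV3, a large protein of microtubule ends, had 44 and 307 counts in the heavy pair and 31 and 148 in the light pair, a difference of 2.85 (2.44 to 3.39) and 2.42 (1.92 to 3.10). SNTB1, a syntrophin that ties membrane proteins to the dystrophin complex, had 154 and 1073 counts in the heavy pair and 210 and 1191 in the light pair, a difference of 2.88 (2.65 to 3.15) and 2.73 (2.53 to 2.96). LMO7, an actin-associated junction protein, differed by 1.88 and 1.83, SYNE2, a giant linker of nucleus and cytoskeleton, by 1.47 and 1.17, DIAPH1, a formin that elongates actin, by 1.08 and 1.28, and EXPH5, a Rab27 effector, by 1.22 and 1.44.

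The circadian clock supplied 4 members, all of them repressors. In this clock, CLOCK or NPAS2 pairs with ARNTL to drive transcription, PER and CRY proteins feed back to inhibit the pair, and the nuclear receptor NR1D1 represses ARNTL. PER2, on chromosome 2 from 238244044 to 238290102, had 69 and 334 counts in the heavy pair and 54 and 188 in the light pair. The difference was 2.34 (1.996 to 2.77) in the heavy and 1.998 (1.59 to 2.50) in the light pair. PER3 had 13 and 136 counts in the heavy pair and 44 and 152 in the light pair, a difference of 3.30 (2.66 to 4.43) and 1.98 (1.53 to 2.54). CRY2 had 104 and 325 counts in the heavy pair and 51 and 122 in the light pair, a difference of 1.72 (1.42 to 2.07) and 1.46 (1.01 to 1.99). CRY1 had 202 and 411 counts in the heavy pair and 211 and 362 in the light pair, a difference of 1.12 (0.88 to 1.37) and 1.01 (0.77 to 1.27). For all 4 genes both labelled knockout libraries were above both wild type libraries. Their membership depends on the settings: CRY1 fell short in the light pair with library totals alone (0.949) and with a pseudocount of 10 (0.984), and PER2, PER3 and CRY2 lacked the counts for a minimum of 200.

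The rest of the clock was spread on both sides of 0. Of 25 clock genes listed, 20 were among the rows, 4 were at least 2-fold higher in both pairs and 0 at least 2-fold lower, against 1.25% of all rows that were higher in both. That count is read on the values the rule used and is no test. PER2, PER3 and BHLHE41 had under 100 counts in both wild type libraries, and CRY2 had 51 in the light one. There they passed the count minimum through the labelled knockout alone and had to be higher in it. PER1, the third period gene, was at 0.03 in the heavy and 0.37 in the light pair. CLOCK was at 1.26 and 0.74, TEF at 1.38 and 0.76, and BHLHE41 at 1.53 and 0.92, above the threshold in the heavy pair alone. ARNTL was at -0.86 and -1.38, NR1D1 at -0.62 and -0.75, NFIL3 at -0.74 and -0.84, and BHLHE40 at -0.65 and -0.45. The time of harvest is not given in the sources used here. This list was grouped after the members were seen.

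**Figure D4:**
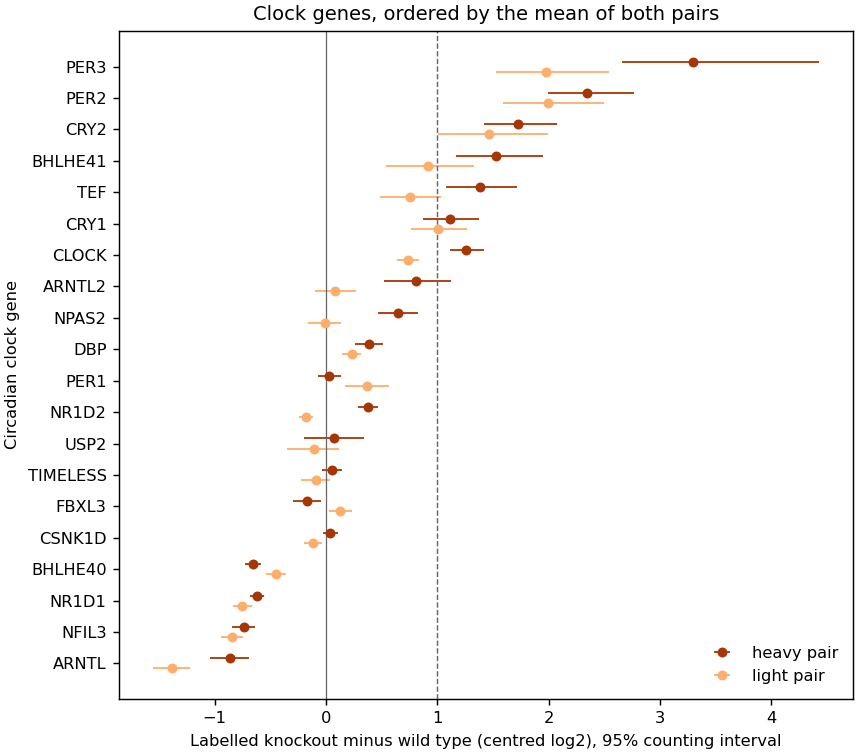
Centred log2 difference between labelled knockout and wild type (x axis) with 95% counting intervals for the 20 clock genes among the rows, dark for the heavy and pale for the light pair, with a dashed line at the rule's threshold of 1. PER3, PER2, CRY2 and CRY1 reach 1 in both pairs, and ARNTL, NFIL3, NR1D1 and BHLHE40 lie below 0 in both. PER1 lies near 0 in the heavy pair and at 0.37 in the light pair.

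Transcription and chromatin proteins were 13 members with ZBED2. ZBTB20, a zinc finger repressor, had 891 and 4112 counts in the heavy pair and 740 and 2288 in the light pair, a difference of 2.30 (2.20 to 2.41) and 1.86 (1.74 to 1.99). Another gene on the same strand covers 43.02% of its exon bases. ZBTB18, a related repressor, differed by 2.51 and 1.73, GLIS3, a Kruppel-like factor, by 2.13 and 1.84, RUNX2, the runt factor of bone, by 1.51 and 1.45, and FOXD1, a forkhead factor, by 1.76 and 1.14. TET1, which oxidises 5-methylcytosine, had 25 and 122 counts in the heavy pair and 77 and 146 in the light pair, a difference of 2.30 (1.76 to 3.07) and 1.14 (0.75 to 1.58). The Polycomb proteins SCML2 and PHC3 differed by 1.65 and 1.98 and by 1.17 and 1.18. ATXN1, a polyglutamine protein that binds corepressors, differed by 1.99 and 1.22, and TCEA3, an elongation factor, by 2.36 and 1.52. The zinc finger genes ZNF701 and ZNF266 had smaller differences of 1.63 and 1.44, and reads of such repeated families can be shared between relatives.

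Enzymes and binding proteins of lipids and small molecules were 10 members. SCD, which puts the double bond into stearate, had 15806 and 34230 counts in the heavy pair and 10286 and 18146 in the light pair. Its difference was 1.21 (1.19 to 1.24) and 1.05 (1.02 to 1.09). GPAM, which starts triglyceride synthesis, differed by 1.41 and 1.196, NCEH1, which hydrolyses cholesterol esters, by 1.16 and 1.47, and HSD3B7, of bile acid synthesis, by 1.48 and 1.45, although a gene on the opposite strand covers 64.8% of the exon bases of HSD3B7. CYP24A1, which inactivates vitamin D, differed by 1.42 and 1.45, and MAT2A, which makes S-adenosylmethionine, by 1.16 and 1.38. ENPP5, a phosphodiesterase family member, differed by 1.57 and 2.40, and GALNT5, which starts O-glycans, by 1.52 and 1.51. PPT2, a lysosomal thioesterase, differed by 1.24 and 1.18 and overlaps a readthrough transcript of the same strand over 49.3% of its exon bases.

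Members of cell division, the nuclear pore, RNA and translation were 11, and their differences lay near the threshold, with smaller differences from 1.01 to 1.22. MKI67, the proliferation marker Ki-67, had 5099 and 9719 counts in the heavy pair and 2544 and 5827 in the light pair, a difference of 1.03 (0.98 to 1.08) and 1.43 (1.36 to 1.499). ABCE1, which recycles ribosomes, had 3422 and 6755 counts in the heavy pair and 2149 and 4275 in the light pair, a difference of 1.08 and 1.23. ANKRD52, a subunit of the phosphatase that acts on Argonaute proteins, differed by 2.17 and 1.05. The others were NUP107, a scaffold protein of the nuclear pore, ASPM, of the spindle poles, PSME4, a proteasome activator, DHX57, a helicase, UTP20, of ribosome assembly, EIF5A2, a translation factor, LARS2, the mitochondrial leucyl-tRNA synthetase, and FAM111B, a protease.

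The last 11 members were genes of noncoding or unsure type, rows with no match to the annotation, and proteins of other roles. BLACAT1, first named as a long noncoding RNA of bladder cancer, is typed as protein coding in GENCODE 44, with 99 coding bases and a 3′ UTR of 6039, and is counted as such in the seed matches. It had 66 and 275 counts in the heavy pair and 159 and 406 in the light pair, a difference of 2.12 and 1.58. LOC100233156 differed by 2.28 and 2.45 and MTRNR2L1 by 1.77 and 1.21, and both are without a match in GENCODE 44. MTRNR2L1 is a nuclear copy of mitochondrial ribosomal RNA, and reads of the copy and of the mitochondrial transcript are hard to tell apart. PKI55 is annotated as a noncoding RNA and differed by 1.05 and 1.496. FAM160B1, AIM1L, FAM71E1, ENDOD1, TMEM245, C7orf43 and ATL3, the last an atlastin that shapes the endoplasmic reticulum, had smaller differences between 1.01 and 1.34.

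Levels between genes can be compared only per exon length. On that scale, CPM per kilobase, KRTAP2-3 was at 699 in labelled knockout light polysomes, CHPF at 220, SCD at 198 and FAT1 at 60.7. In wild type light polysomes KRTAP2-3 was at 35.2, CHPF at 82.3, SCD at 99.4 and FAT1 at 18.5. In heavy polysomes KRTAP2-3 and SCD were at 27.1 and 144 in the wild type and at 342 and 339 in the labelled knockout. KRTAP2-3 was thus below SCD in both wild type libraries, above it in the labelled knockout light library and level with it in the heavy one, as far as its uncertain counts can be read.

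Lists of 20 pathways, target groups and gene classes were read against the 1.25% of all rows that were at least 2-fold higher in both pairs. The lists were chosen with earlier results of these data known and are read on the values the rule used. Their shares are therefore descriptions and no test. The list of very long coding mRNAs had 5 of 49 such rows, 4 of them members (FAT1, MKI67, NAV3 and SYNE2), and 47 of these 49 rows were above 0 in the heavy and 46 in the light pair, against 5209 and 5208 of the 10418 rows. The median of that list was 0.51 in the heavy and 0.67 in the light pair. Mesenchymal and matrix genes had 3 (COL12A1, LAMB3 and ADAM19) of 23 rows, with medians of 0.58 and 0.87. Neuronal and guidance genes had 2 of 21, DCLK1 and SEMA3C, growth factor receptors and ligands 2 of 42, EPHA4 and FGF9, and channels and carriers 3 of 48, with SLC1A3 and ANO1 as members. SCD stood on the list of sterol and fatty acid synthesis, whose 39 rows had medians of 0.22 and 0.48. Targets of the miR-17 family and miR-19 had 2 of 37, with EPHA4 as the member, targets of miR-200, miR-141 and miR-205 had JAG1 of 19, and p53 targets had PLK2 of 29. The Wnt list had 3 of 32, with BMP4 as the member. The TGF-beta list had 1 of 29, again BMP4, and the list of chromatin regulators 1 of 63, TET1. Some lists were without a member solely because the rule leaves out genes that meet its thresholds: 3 of 26 targets of miR-15/16, miR-34 and miR-21, AXIN2 and WNT3A among them, 2 of 18 NF-kB and inflammatory genes, ICAM1 and IL32, and 2 of 53 RNA silencing and decay proteins, TNRC6A and DCP2. The lists of let-7 targets, Hippo targets, interferon-stimulated genes and cancer testis antigens had 0 among 26, 22, 27 and 3 rows. The medians of let-7 targets were 0.34 in the heavy and 0.11 in the light pair. Those of the other microRNA target lists were 0.40 and 0.07 (miR-17 and miR-19), 0.52 and 0.05 (miR-200, miR-141 and miR-205), and 0.34 and 0.01 (miR-15/16, miR-34 and miR-21). Interferon-stimulated genes had -0.39 and -0.08.

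Heavy against light polysomes is a comparison that the rule did not use, and the 2 gradients served as its replicates. It was fitted over all 13574 genes that passed the filter on low counts, by edgeR's quasi-likelihood test, where the gradient entered as a block and left 1 residual degree of freedom. Since each genotype label is 1 gradient, the spread behind the p-values is how far these gradients differ in the ratio. Genotype and technical differences cannot be told apart in it. The fit also shares its estimate of spread between genes. At an adjusted p under 0.05, the calls toward heavy polysomes were 4074, 30.0% of the genes in the fit, and those toward light polysomes 3977, 29.3%. All 117 members were tested: 50 (42.7%) were called toward heavy, 22 (18.8%) toward light, and 45 were not called. Among the 10418 rows with the count minimum, the shares called were 34.8% and 27.6%. The members' median fitted log2 ratio of heavy to light was 0.48, with a range from -1.45 to 2.40, against -0.07 for all genes tested and 0.07 for the other rows with the same count minimum.

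With library totals alone in place of TMM scaling, the median of all genes moved to -0.30 and the share of calls toward heavy among all calls from 50.6% to 38.9%. The members then stood at 43 called toward heavy and 27 toward light, and their median lay 0.55 above that of all genes under either scaling. For 109 of the 117 members the ratio had the same sign in both gradients. The share over all rows was not counted, so this does not set the members apart.

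Coding length went along with this ratio in members and in other rows. Longer coding sequences have room for more ribosomes, and the members' coding sequences were longer, with a median of 2053.5 bases against 1402.5 in the other rows. Above 5000 bases lay 15 of 114 members (13.2%) and 4.22% of other rows. Within length classes the medians of members and other rows were close: -0.73 and -0.72 up to 1000 bases (19 members), 0.20 and 0.24 from 1000 to 2000 (36 members), 0.82 and 0.77 from 2000 to 5000 (44 members), and 0.99 and 0.97 above 5000 (15 members). The classes of other rows also differed in the genotype comparison, with medians of -0.11 in the heavy and -0.06 in the light pair up to 1000 bases and 0.27 and 0.32 above 5000. The 3′ UTRs of the members were longer too, with a median of 1944.5 bases against 1349.

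**Figure D5:**
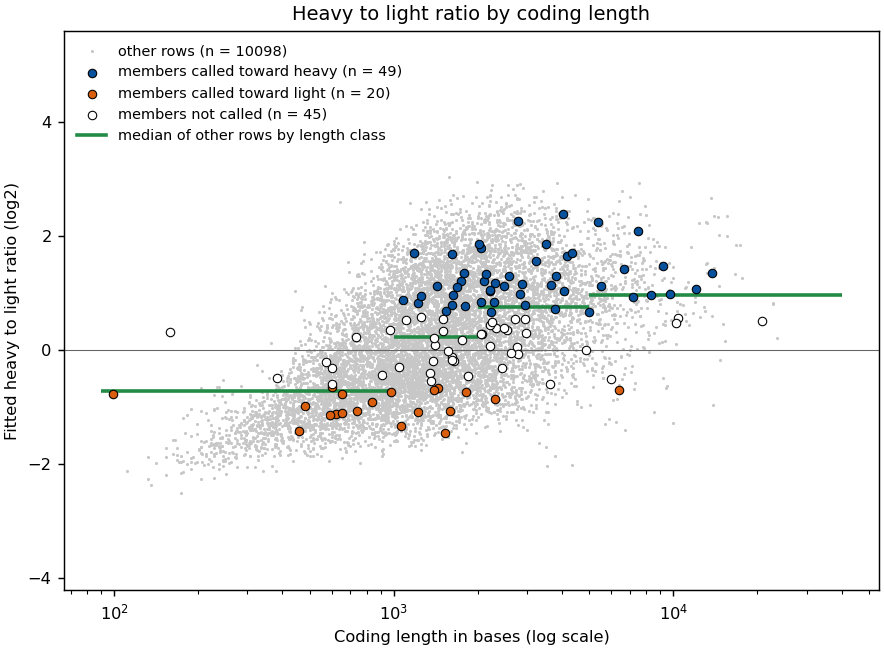
Fitted log2 ratio of heavy to light polysomes (y axis) against coding length in bases on a log axis, for the 114 members with a coding sequence (large points, filled where called) and for other rows (grey), with green bars at the median of the other rows in 4 length classes. The members spread around the green bars in each class, from -0.73 up to 1000 bases to 0.99 above 5000.

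The members with the highest called ratios were matrix, sorting and pore genes. COL18A1, the collagen of basement membranes, had a log2 ratio of 2.40 (SE 0.30, adjusted p = 7.21e-14), NUP107 2.27 (SE 0.28, adjusted p = 9.75e-14), LAMB2 2.25 (SE 0.28, adjusted p = 7.59e-14), IGF2R 2.10 (SE 0.27, adjusted p = 9.43e-13) and PKI55 1.95 (SE 0.29, adjusted p = 4.24e-10). In each gradient these 5 ratios were at least 1.70. PKI55 is annotated as noncoding and yet lay toward heavy polysomes, with 168 and 327 counts in the heavy pair and 41 and 101 in the light pair. Of the 16 matrix members, 11 (68.8%) were called toward heavy and 0 toward light, against 34.8% and 27.6% of the 10418 rows, with a median of 1.07. Their median coding length was 2596.5 bases, and other rows of 2000 to 5000 bases had a median ratio of 0.77. The lowest matrix value was that of FBLN5, -0.39 (adjusted p = 0.232).

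At the other end were mRNAs of signalling and translation proteins. FRS2 had a ratio of -1.45 (SE 0.27, adjusted p = 3.97e-07), EIF5A2 -1.41 (SE 0.26, adjusted p = 5.25e-07), VASH2 -1.33 (SE 0.28, adjusted p = 1.05e-05) and FGF9 -1.12 (SE 0.31, adjusted p = 0.000708). EIF5A2 codes for 459 bases and FGF9 for 624, while FRS2 codes for 1524 and has a 3′ UTR of 4838. Of the 13 members of transcription and chromatin, 4 were called toward light (ZBED2, ZBTB18, TET1 and FOXD1) and 2 toward heavy (ZBTB20 and SCML2). Of 11 members of division, pore, RNA and translation, 8 were called toward heavy and 1, EIF5A2, toward light, with a median coding length of 3228 bases. The shares over all rows, 34.8% toward heavy and 27.6% toward light, are the background for both of these groups. In the clock, CRY2 (1.35, adjusted p = 1.45e-05) and PER2 (0.74, adjusted p = 0.0194) were called toward heavy, and PER3 (-0.59, adjusted p = 0.11) and CRY1 (0.18, adjusted p = 0.558) were not called.

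The size of the difference was similar in both pairs for most members. It was larger in the heavy pair for 53 members and in the light pair for 64, and for 88 the pairs were within 0.5 of each other. The widest gaps toward the heavy pair were 1.44 for DCLK1, 1.32 for PER3, 1.205 for ZBED2 and 1.16 for TET1, all with under 100 counts in both wild type libraries. The widest toward the light pair were -0.85 for ECM1, -0.82 for ENPP5, -0.76 for SERPING1 and -0.74 for KRTAP2-3. These values come from the same differences as the rule and carry no test.

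On the genome, several members lay within 1 Mb of another. How often an equal number of other rows lie this close was not counted. No other row lay between SERINC2 and TINAGL1 on chromosome 1, 141805 bases apart, or between PVRL3 and ZBED2 on chromosome 3, 317337 bases apart. In other pairs rows lay between: for NUP107 and FRS2 on chromosome 12, 4 rows lay between, with medians of -0.12 in the heavy and 0.23 in the light pair, and for TNS4 and KRTAP2-3 on chromosome 17, 5 rows with 0.04 and 0.08. Further pairs were FAM71E1 and KLK6, NTSR1 and COL9A3, PHC3 and EIF5A2, and RUNX2 and ENPP5. By chromosome, the share of rows that were members ran from 0 of 150 on chromosome 18 to 4 of 177 on chromosome 13 (2.26%), and chromosome 3 had 12 of 582 (2.06%).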

How the data were processed

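RNA of heavy and light polysomes from HCT116 cells was sequenced in 4 libraries. The authors deposited unnormalised whole-number counts of reads for each gene symbol. CASAVA, STAR, HTSeq and the build hg19 are named in the submitters' processing notes, whereas annotation, strand setting and versions are not. The members and gene lists were chosen with earlier results of these data known, and families named as such after the members were seen. Genes were named by rank of difference, abundance and heavy to light ratio, by nearness to the threshold, by list and by genomic neighbourhood, and all others by role. Of the 117 members, 7 are not reported here by name, though counts and medians hold them.

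Differences between genotype labels used library totals, a pseudocount of 2 and the median of 10418 rows as centre, with exact 95% counting limits. Heavy against light polysomes used edgeR 4.0.16 in R 4.3.3 (TMM, filterByExpr, quasi-likelihood, Benjamini-Hochberg) on the counts. A run on simulated counts, with no difference between gradients and few changed genes, called 199 of 200 changed and 6 of 13186 unchanged genes. These settings differ from the data, so that run checks the code alone. DESeq2 1.42.0 was an alternative. Symbols were matched to GENCODE 44 (GRCh38) for 24167 of 26364 rows and 115 of 117 members, 6 of these through older symbols. Lengths, 3′ UTRs and positions come from there, promoters and microRNAs from RefSeq (GRCh38.p14). A count of 0 allows 3 counts, 0.143 to 0.172 CPM. Tables and figures used Python 3.11.15, pandas 2.3.3 and matplotlib 3.10.9. No column lacked a sample.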

Additional observations from a re-analysis of the deposited data

Results flagged for a closer look

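VSNL1, a neuronal calcium sensor, was the 1 member whose log2 heavy to light ratio had opposite signs in the 2 gradients with counting limits that exclude 0 in both: 0.17 for wild type and -0.56 for labelled knockout, both with TMM scaling. The opposite signs depend on that scaling: by library totals alone the ratios were -0.13 (counting interval -0.25 to -0.02) and -0.72 (-0.79 to -0.65), both toward light polysomes. The wild type had 1268 heavy and 1311 light counts, and the labelled knockout 2959 and 4417. With 1 gradient per genotype label the difference between the ratios was not tested.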

How the results depend on the processing

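With 1 library per group, no replicate could be left out, and the genotype difference has no test that a setting could end. No paired analysis was possible because, for the genotype difference, each group is 1 library, while heavy against light is paired by gradient in the fit itself. The number of members stayed between 91 and 153 for a minimum of 200 or 50 counts, a pseudocount of 0.5 or 10, library totals alone, TMM factors and a total without ribosomal RNA. Of the 117 members, 27 were lost at a minimum of 200, 10 with TMM factors (MKI67, COL18A1, COL9A3 and JAG1 among them), 9 with library totals alone (CRY1, SCD, LAMB3 and ANKRD52 among them) and 7 with a pseudocount of 10, those under a changed scaling or pseudocount lying between 0.945 and 0.999 in the pair that fell short. The number of members moved to 316 with no filter on counts, 76 of them shared with the 117 members, and to 39 at a log2 difference of 1.5, an alternative chosen after seeing the data. The members' medians moved by less than the counting interval under each scaling and pseudocount. For heavy against light polysomes, the gradient is what carries the members' genotype difference, so leaving its term out puts that difference into the spread by construction: 11 members were then called toward heavy and 1 toward light, beside 2857 and 2183 of all genes, where 4074 and 3977 were called with the term. DESeq2 called 52 and 13, and 3830 and 2792 of 13515 genes; the cause was not tested. Of 155 recomputed calls for single members, 0 changed direction, and 24 were lost without the gradient term, 3 with DESeq2 and 3 with library totals alone. The ratio of VSNL1 in the wild type gradient changed sign, to -0.13, with library totals alone, an alternative chosen after seeing the data. Depth limits the members that had few counts in the wild type, where intervals are wide.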
